A study of Mus musculus with 4 samples.

Results

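In all, 10 genes were followed here, namely the transcription factor genes Pou4f1, Pou4f2, Pou4f3 and Isl2, the RNA-binding protein gene Rbpms, Sncg, Thy1 and the neurofilament genes Nefl, Nefm and Nefh. They were chosen by name as genes used to recognise retinal ganglion cells, and all 10 were found, each on 1 row with an OK status in all 4 tables, among 21835 genes in all. RNA was sequenced from mouse retina of the slc:ICR strain at postnatal day 12, after cells had been sorted on Cd73, a surface enzyme carried by rods and their precursors. Cd73-negative (Cd73N) and Cd73-positive (Cd73P) cells were each taken from wildtype (WT) retina and from Ezh2-cKO retina, in which floxed Ezh2 is removed by a Cre driven by the Dkk3 gene in retinal progenitor cells. The WT animals were normal littermates. There was 1 library for each of the 4 groups, so no difference given here has a replicate check, no p-value was computed, and errors cover counting error only.

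Retinal ganglion cells are the output neurons of the retina and send their axons through the optic nerve to the brain. The POU-domain factors Pou4f1, Pou4f2 and Pou4f3 and the LIM-homeodomain factor Isl2 act in their specification, subtype identity and axon growth, while Rbpms marks nearly every ganglion cell. Neurofilaments are the intermediate filaments of large axons and are built from a light (Nefl), a medium (Nefm) and a heavy (Nefh) chain. Ganglion cells are born before birth and are a rare cell type of the mature retina, and several of these genes, among them Thy1 and the neurofilament genes, are also used by other neurons.

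The labels were checked first. Nt5e, which encodes Cd73, had 125 and 123 FPKM (fragments by exon length and sequencing depth) among Cd73P cells, against 0.844 and 0.609 FPKM among Cd73N cells. Ezh2 was at 14.1 FPKM in Cd73N WT and 15.9 FPKM in Cd73N Ezh2-cKO, and at 5.38 and 3.45 FPKM in the same order in Cd73P. The Cd73N value went against its label, although a value over all exons does not show whether the floxed part was lost, and these are called the libraries labelled Ezh2-cKO below. The genotypes also differed in sex-linked transcripts. Of these, 4 Y-linked genes summed to 26.8 and 27.9 FPKM in the WT libraries and to 0.716 and 0.496 FPKM in the libraries labelled Ezh2-cKO. The X-linked Xist was present in all libraries, at 52.2 and 47 FPKM in WT and at 240.4 and 95.6 FPKM in those labelled Ezh2-cKO. The sex make-up of a library and its genotype thus cannot be told apart. Depth, inferred from the deposited bounds, differed by at most 1.17 times.

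Nearly all levels of the 10 genes were under 10 FPKM (plot of the members by library). FPKM is a read density per length of exon, so levels can be compared between genes. At least 1 FPKM was reached by 6 of the 10 genes in Cd73N WT, 5 in Cd73N Ezh2-cKO, 2 in Cd73P WT and 1 in Cd73P Ezh2-cKO. Of the 21835 genes in all, 12166, 12713, 10450 and 10325 reached it in the same order. The members' share thus lay near that over all genes in Cd73N and below it in Cd73P. Only 2 values reached 10 FPKM, Thy1 in Cd73N Ezh2-cKO and Nefh in Cd73P Ezh2-cKO. The order of levels was led by Thy1 and then Rbpms in both Cd73N libraries, and by Nefh in both Cd73P libraries. Below these leaders many neighbours in the order could not be separated, since the deposited FPKM bounds overlapped for 4 of the 9 neighbouring pairs in Cd73N WT, 3 in Cd73N Ezh2-cKO, 6 in Cd73P WT and 7 in Cd73P Ezh2-cKO.

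**Figure D1:**
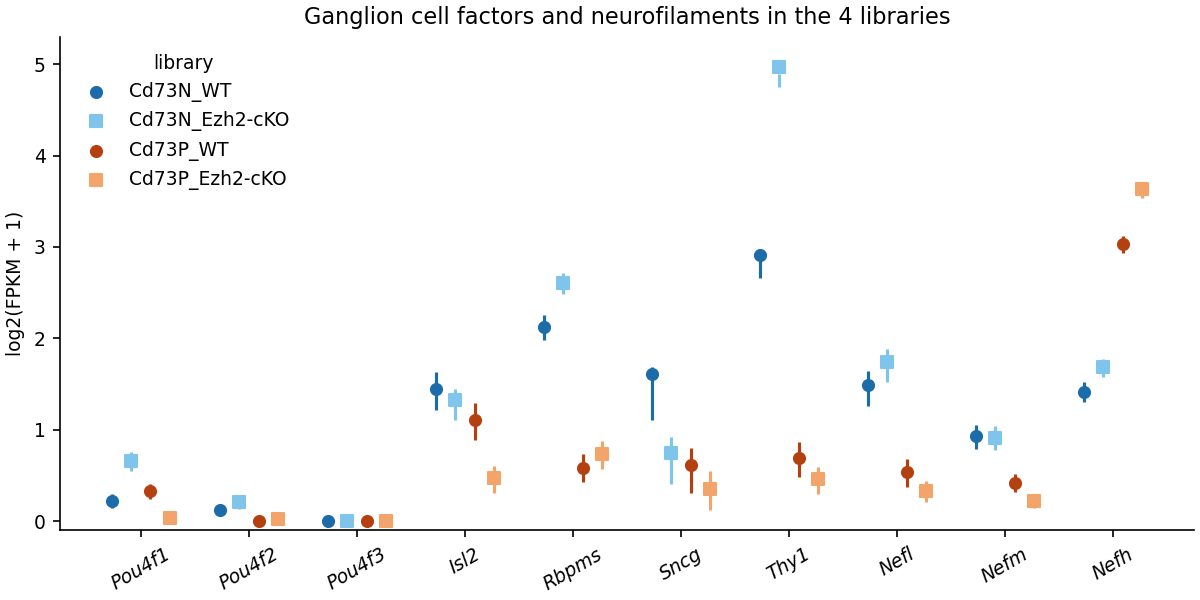
Level of each of the 10 genes as log2(FPKM + 1) in the 4 libraries, with points for the deposited value and vertical lines for the deposited lower and upper bounds; each point is 1 library. Thy1 in Cd73N Ezh2-cKO (30.3 FPKM) and Nefh in the Cd73P libraries (7.2 and 11.4 FPKM) have the highest values, and Pou4f3 is at 0 throughout. The bounds of Nefh in Cd73P WT overlap those of Thy1 in Cd73N WT (6.52 FPKM).

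The defining ganglion cell factors were close to or at 0. Pou4f3 (chromosome 18, 42554251 to 42555747 on mm9, plus strand) was listed at 0 in all 4 libraries. Pou4f2 (chromosome 8, 80956908 to 80960551, minus strand), a factor needed for the formation of most ganglion cells, was at 0.0861 FPKM in Cd73N WT, 0.153 in Cd73N Ezh2-cKO, 0.0175 in Cd73P Ezh2-cKO and listed at 0 in Cd73P WT. The bounds of its Cd73N values overlapped between genotypes. Pou4f1 (chromosome 14, 104861541 to 104867216, minus strand) was at 0.168 FPKM in Cd73N WT, 0.581 in Cd73N Ezh2-cKO, 0.255 in Cd73P WT and 0.0211 in Cd73P Ezh2-cKO. Its highest and lowest values thus came from the libraries labelled Ezh2-cKO, in opposite fractions. The width of the bounds corresponds to about 32, 104, 47 and 4 fragments for Pou4f1 in the order Cd73N WT, Cd73N Ezh2-cKO, Cd73P WT and Cd73P Ezh2-cKO, so that the last of these rests on very few reads.

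Isl2 was the only factor of the 4 above 1 FPKM. Isl2 (chromosome 9, 55388956 to 55393985, plus strand), which marks a subset of ganglion cells, was at 1.72 FPKM in Cd73N WT and 1.5 in Cd73N Ezh2-cKO. It was at 1.15 FPKM in Cd73P WT and 0.383 in Cd73P Ezh2-cKO, the lowest of the 4 values. Reads of the Pou4f genes can be shared between paralogs. Of all 36-base stretches of the longest GENCODE transcript, 36 being the read length, 2.22% in Pou4f1, 1.61% in Pou4f2 and 0.54% in Pou4f3 also occurred in another Pou4f gene, and none did in another coding transcript for Isl2, Rbpms, Sncg, Thy1, Nefm or Nefh.

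Promoters were at hand for 4 of the 10 genes, and their sequences are shown because CpG-rich promoters are the usual sites of Polycomb repression, the system Ezh2 belongs to. Promoters of Pou4f3, Rbpms, Thy1, Nefl, Nefm and Nefh are not shown. The windows run from 250 bases before to 50 bases after the RefSeq start on the GRCm38.p6 build, a build other than that of the expression tables, and are printed 5′ to 3′ on the strand of the gene with each CpG in capitals. They lie at chr14:104467950-104468249 (minus strand) for Pou4f1, chr8:78436598-78436897 (minus) for Pou4f2, chr9:55540899-55541198 (plus) for Isl2 and chr14:34374620-34374919 (minus) for Sncg.
Pou4f1: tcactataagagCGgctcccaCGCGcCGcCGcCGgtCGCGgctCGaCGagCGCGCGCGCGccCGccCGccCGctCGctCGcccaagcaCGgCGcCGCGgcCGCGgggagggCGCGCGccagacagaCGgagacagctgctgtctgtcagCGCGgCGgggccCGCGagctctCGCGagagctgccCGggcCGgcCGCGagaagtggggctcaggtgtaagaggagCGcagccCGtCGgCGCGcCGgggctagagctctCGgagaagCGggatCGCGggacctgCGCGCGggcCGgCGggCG
Pou4f2: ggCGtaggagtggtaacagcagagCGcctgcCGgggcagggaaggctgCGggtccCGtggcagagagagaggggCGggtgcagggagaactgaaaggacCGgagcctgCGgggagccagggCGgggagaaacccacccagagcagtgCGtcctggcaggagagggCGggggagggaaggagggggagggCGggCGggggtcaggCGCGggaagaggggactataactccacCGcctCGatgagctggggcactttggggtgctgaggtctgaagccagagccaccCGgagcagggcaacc
Isl2: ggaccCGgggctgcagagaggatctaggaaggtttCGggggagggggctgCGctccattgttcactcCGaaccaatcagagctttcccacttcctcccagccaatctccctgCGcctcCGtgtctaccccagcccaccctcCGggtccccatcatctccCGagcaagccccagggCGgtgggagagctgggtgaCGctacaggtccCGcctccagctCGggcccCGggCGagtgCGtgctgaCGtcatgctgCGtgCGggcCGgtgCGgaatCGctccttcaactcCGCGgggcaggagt
Sncg: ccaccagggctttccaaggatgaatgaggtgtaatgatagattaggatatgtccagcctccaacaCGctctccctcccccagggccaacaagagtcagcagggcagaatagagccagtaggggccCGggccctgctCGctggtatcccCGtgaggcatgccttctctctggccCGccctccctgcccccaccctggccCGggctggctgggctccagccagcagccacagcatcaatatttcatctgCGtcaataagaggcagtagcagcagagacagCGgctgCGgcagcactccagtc

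The 4 promoters differed widely in CpG content. The Pou4f1 window held 57 CpGs in 300 bases at 78.3% G+C, more than 99.8% of the 32851 RefSeq promoters of this length. Isl2 held 23 CpGs (67.3% G+C) and Pou4f2 18 (69.7% G+C), more than 78.5% and 70.3% of promoters. Sncg held 9 CpGs at 61.3% G+C, against a median of 7 CpGs over all promoters. The ratio of observed to expected CpGs was 1.24 for Pou4f1, 0.68 for Isl2, 0.56 for Pou4f2 and 0.32 for Sncg. On either strand none of the 4 windows held TATAAA (the classical core promoter box, in 13.6% of all promoters), TAATTA (a homeodomain core, in 5.29%) or TAATCC (the core bound by photoreceptor homeodomain factors, in 7.06%), and the last 2 motifs begin with the same letters. The motif CAGATG, an E-box of the kind bound by proneural factors, was found only in Sncg, at position 242 counted from the first base of the window, and occurs in 17.2% of all promoters. A match to such short letters is a description and not a binding site.

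The sorted fractions were then compared within each genotype, to see in which fraction these genes were found. In WT, Rbpms, Sncg, Thy1 and Nefl were lower in Cd73P than in Cd73N by at least 1.5-fold on the log2(FPKM + 1) scale, a scale that understates ratios of low values, and Nefh was higher. Across all 21708 genes compared, 27.9% were lower in Cd73P and 9.07% higher, and the median log2 ratio was -0.42 over the 10 members and -0.05 over all genes. Only 6 members had at least 1 FPKM in 1 of the 2 libraries, and over the 12491 genes at that level the shares were 45.9% lower and 15.4% higher. In the libraries labelled Ezh2-cKO, 6 members were lower in Cd73P (Pou4f1, Isl2, Rbpms, Thy1, Nefl and Nefm) and Nefh was again the only one higher, beside 29.1% lower and 8.41% higher among 21707 genes. The median log2 ratio was -0.66 over the members and -0.09 over all genes. Here 5 members had at least 1 FPKM in 1 of the 2 libraries, and the shares over the 12976 genes at that level were 45.6% lower and 13.8% higher. The 4 comparisons of this study share libraries with one another, so their values are given side by side only. In a bulk fraction, fewer cells of a type and less RNA per cell cannot be told apart.

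On the log2(FPKM + 1) scale, Rbpms and Thy1 had the most negative ratios of Cd73P over Cd73N among the members in both genotypes. That order depends on the scale. As plain percentages of Cd73N, Pou4f1 (3.63%), Nefl (11.1%) and Pou4f2 (11.4%) lay below Rbpms (12.9%) in the libraries labelled Ezh2-cKO. In WT, Pou4f2 was listed at 0 in Cd73P. Rbpms (chromosome 8, 34893116 to 35040313, minus strand) was at 3.36 FPKM in Cd73N WT and 0.496 in Cd73P WT, and at 5.09 FPKM in Cd73N Ezh2-cKO and 0.658 in Cd73P Ezh2-cKO. The Cd73N values lay above the Cd73P values in both genotypes, with log2 ratios of Cd73P over Cd73N of -1.54 (counting SE 0.104) in WT and -1.88 (counting SE 0.0958) in the libraries labelled Ezh2-cKO. The long non-coding RNA gene Gm17578 lies inside the Rbpms locus on the opposite strand in GENCODE, and the library preparation did not mark strand. Thy1 (chromosome 9, 43851467 to 43856662, plus strand), a glycoprotein anchored in the membrane of many neurons, was at 6.52 FPKM in Cd73N WT and 0.611 in Cd73P WT. It was at 30.3 FPKM in Cd73N Ezh2-cKO and 0.371 in Cd73P Ezh2-cKO. The log2 ratio of Cd73P over Cd73N was -2.22 (counting SE 0.115) in WT and -4.51 (counting SE 0.0806) in the libraries labelled Ezh2-cKO, where only 0.918% of expressed genes, those with at least 1 FPKM in 1 of the 2 libraries, had a lower ratio.

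Sncg and Isl2 differed less between fractions than Rbpms and Thy1. Sncg (chromosome 14, 35183460 to 35187855, minus strand), which encodes gamma-synuclein, a small protein abundant in ganglion cell axons, was at 2.04 FPKM in Cd73N WT, 0.535 in Cd73P WT, 0.682 in Cd73N Ezh2-cKO and 0.278 in Cd73P Ezh2-cKO. Its log2 ratio was -0.99 (counting SE 0.173) in WT, with bounds apart, and -0.40 (counting SE 0.161) in the libraries labelled Ezh2-cKO, with overlapping bounds. Isl2 had log2 ratios of Cd73P over Cd73N of -0.34 (counting SE 0.145) in WT, with overlapping bounds, and -0.85 (counting SE 0.111) in the libraries labelled Ezh2-cKO, with bounds apart. Sncb, which encodes beta-synuclein, was far more abundant, at 577 FPKM in Cd73N WT and 66.3 in Cd73P WT.

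**Figure D2:**
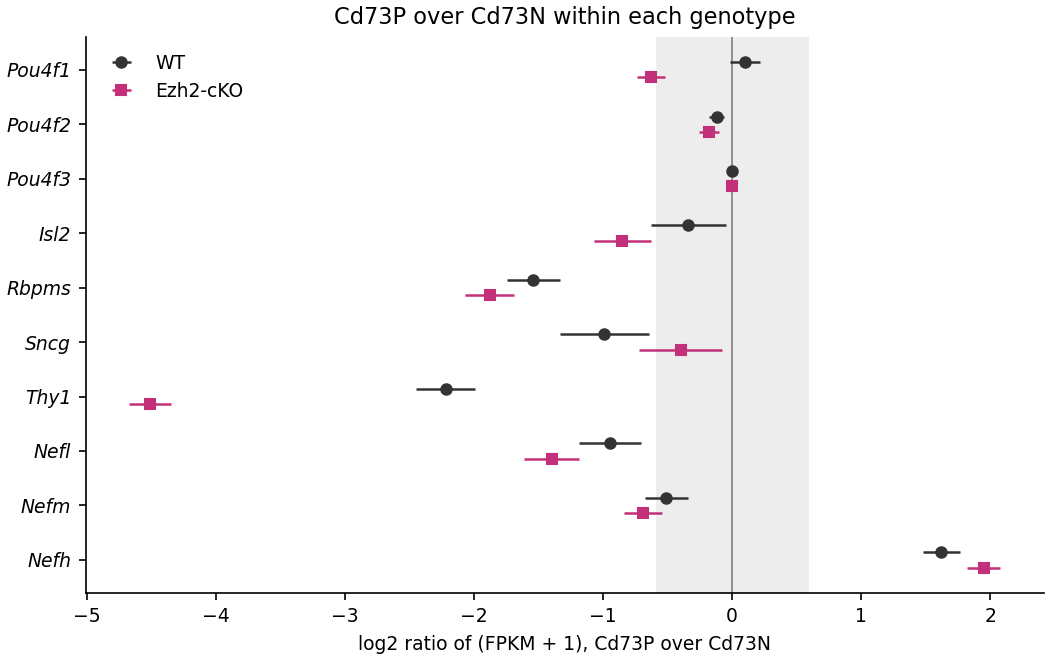
Log2 ratio of (FPKM + 1), Cd73P over Cd73N, for each of the 10 genes in WT and in the libraries labelled Ezh2-cKO; bars are 2 counting standard errors on either side, and the grey band marks ratios within 1.5-fold. Nefh lies to the right in both genotypes (1.62 and 1.95) and Thy1 farthest to the left (-2.22 and -4.51).

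The neurofilament chains did not share 1 pattern. Nefl (chromosome 14, 68701941 to 68705794, plus strand) was at 1.8 FPKM in Cd73N WT, 2.33 in Cd73N Ezh2-cKO, 0.448 in Cd73P WT and 0.257 in Cd73P Ezh2-cKO. Nefm (chromosome 14, 68737602 to 68743061, minus strand), its neighbour at a distance of 31807 bases, was at 0.906, 0.882, 0.338 and 0.167 FPKM in the same order. Both were higher in the Cd73N libraries in each genotype, with bounds apart. Their log2 ratios of Cd73P over Cd73N were -0.95 for Nefl and -0.51 for Nefm in WT, against -1.40 for Nefl and -0.69 for Nefm in the libraries labelled Ezh2-cKO, and the value for Nefm in WT did not reach 1.5-fold. The ratio of Nefl to Nefm was 1.99 in Cd73N WT, 2.64 in Cd73N Ezh2-cKO, 1.33 in Cd73P WT and 1.54 in Cd73P Ezh2-cKO. For Nefl, 32.1% of 36-base stretches occur on the opposite strand in a GENCODE model of Nefm that runs across the Nefl locus, while the rows of the deposited tables do not overlap.

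Nefh (chromosome 11, 4838759 to 4848067, minus strand), the heavy chain with its long phosphorylated tail, ran the other way. It was at 1.67 FPKM in Cd73N WT and 2.21 in Cd73N Ezh2-cKO, against 7.2 FPKM in Cd73P WT and 11.4 in Cd73P Ezh2-cKO. The log2 ratio of Cd73P over Cd73N was 1.62 (counting SE 0.072) in WT and 1.95 (counting SE 0.0635) in the libraries labelled Ezh2-cKO, above 96.1% and 97.3% of expressed genes. Nefh and Nefl were close to even in the Cd73N libraries, with ratios of 0.927 and 0.947, whereas Nefh exceeded Nefl by 16.1 times in Cd73P WT and 44.1 times in Cd73P Ezh2-cKO. Nefh accordingly made up 38.2% and 40.7% of the summed neurofilament FPKM in the Cd73N libraries and 90.2% and 96.4% in the Cd73P libraries. Nefh was called higher in Cd73P under each of the 8 alternative settings tried for the comparison of fractions. Of these settings only the scalings could have turned its direction. Summed over 7 rod markers, the Cd73P libraries had 15466 and 20214 FPKM against 726 and 785 FPKM in Cd73N, and whether rods carried the Nefh reads was not tested.

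The low Cd73P values were read beside markers of other cell types of the Cd73N fraction (plot of Cd73P levels as percent of Cd73N). In WT, the median Cd73P level was 5.3% of the Cd73N level over 7 bipolar markers, 6.29% over 6 cone markers, 5.7% over 7 Müller glia markers and 20.4% over 5 microglia markers. It was 11.1% over 5 horizontal cell markers and 30.3% over 4 astrocyte markers, but 104% over 5 amacrine markers and 144% over 4 endothelial markers, most of which were at a few FPKM or less. Among the members it was 9.37% for Thy1, 14.8% for Rbpms, 24.9% for Nefl, 26.2% for Sncg, 37.3% for Nefm, 67% for Isl2, 151% for Pou4f1 and 432% for Nefh. In the libraries labelled Ezh2-cKO the marker medians were 2.62%, 2.01%, 3.63% and 19.6% in the same order for the first 4 types, 18.2% for horizontal cells, 19.3% for astrocytes, 12.4% for amacrine cells and 26.5% for endothelium. The members were at 1.22% for Thy1, 3.63% for Pou4f1, 11.1% for Nefl, 11.4% for Pou4f2, 12.9% for Rbpms, 18.9% for Nefm, 25.5% for Isl2, 40.8% for Sncg and 515% for Nefh. At levels under 1 FPKM these percentages carry large counting errors.

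**Figure D3:**
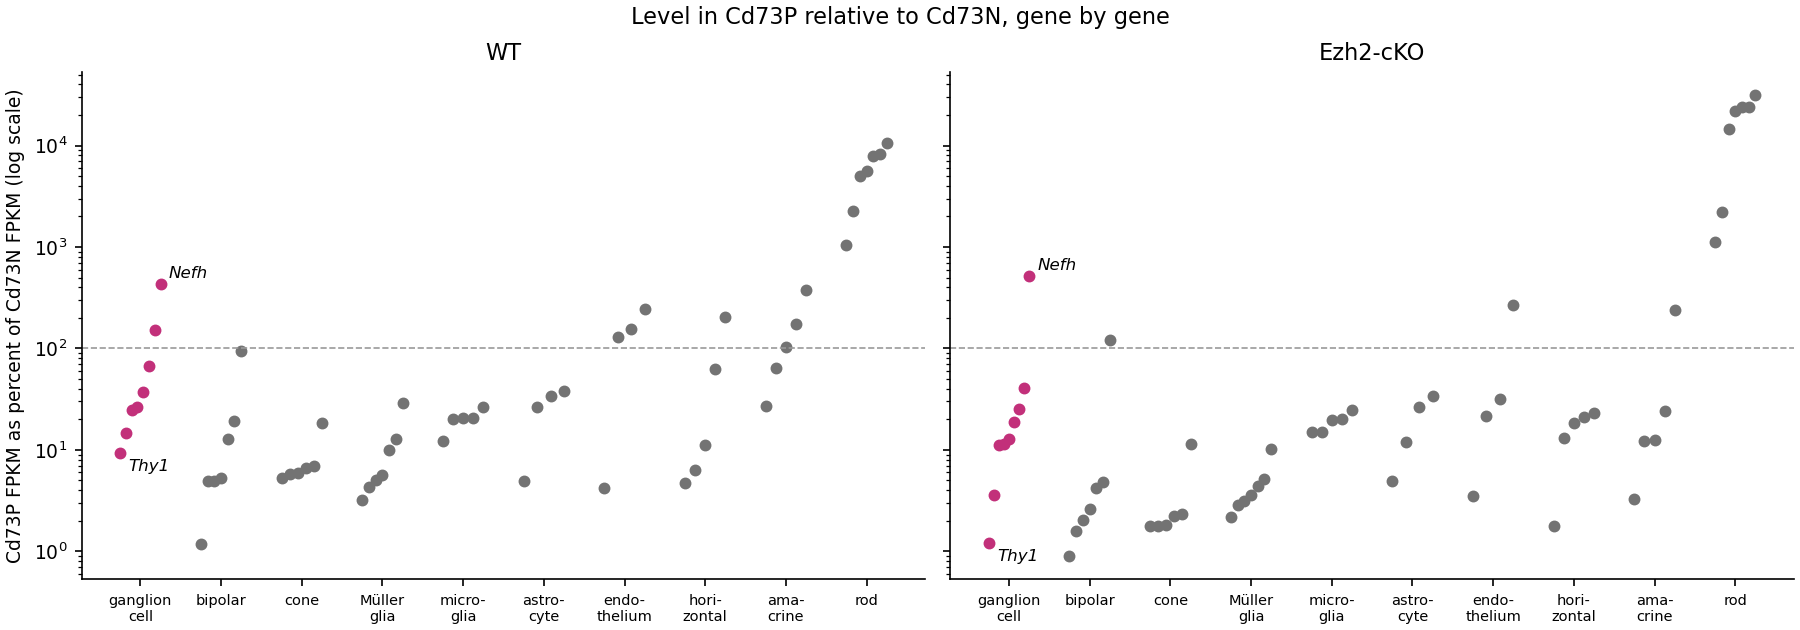
FPKM in Cd73P as percent of FPKM in Cd73N on a log axis, for the genes studied (pink) and for marker genes of 9 other cell types (grey), in WT and in the libraries labelled Ezh2-cKO; each point is 1 gene, genes at 0 in a library are not drawn, and the dashed line marks equal levels. Nefh (432% and 515%) lies below the rod markers and above the markers of the other types, which reach 373% in WT and 266% in the libraries labelled Ezh2-cKO.

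Markers of other retinal cells were read beside these values. Of cell types that also express members of the list, 5 amacrine markers summed to 9.15 and 13 FPKM in Cd73N and to 26.3 and 21.8 FPKM in Cd73P, where the glycine transporter gene Slc6a9 gave 24.1 and 21.4 FPKM. In Cd73N, 5 horizontal cell markers summed to 94 and 63.8 FPKM, of which Prox1, shared by other retinal cells, gave 92.7 and 61.9 FPKM. The 10 members summed to 18.3 FPKM in Cd73N WT and 43.7 in Cd73N Ezh2-cKO, against 1771 and 1027 FPKM for 7 bipolar markers. Pou4f1, Pou4f2 and Pou4f3 were near or at 0 in these libraries while Thy1 and Rbpms were the highest members, so the values are given by gene and not as a measure of ganglion cells.

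The genotypes were compared next within Cd73N, to see what the Ezh2-cKO label went with outside the Cd73-sorted rods. Thy1 was the only member higher in the library labelled Ezh2-cKO by at least 1.5-fold and Sncg the only one lower. The other 8 were not called. Over all 21709 genes, 7.19% were higher and 1.71% lower (11.6% and 2.86% of the 12847 genes with at least 1 FPKM in 1 of the 2 libraries), and the members' median log2 ratio was 0.17 beside 0.00 over all genes. The Thy1 log2 ratio was 2.06 (counting SE 0.0757), for 6.52 FPKM in WT and 30.3 FPKM in the library labelled Ezh2-cKO, and 99.2% of expressed genes had a lower ratio. The value of 30.3 FPKM lies above its own deposited upper bound of 28.8 FPKM, and even the lower bound of 25.9 FPKM exceeds the WT upper bound of 6.74 FPKM. Sncg was at 2.04 FPKM in WT and 0.682 in its Ezh2-cKO counterpart, for a log2 ratio of -0.85 (counting SE 0.175).

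The remaining members of Cd73N lay closer together on the log2(FPKM + 1) scale. Rbpms had a log2 ratio of 0.48 (counting SE 0.0907), just under the 1.5-fold threshold, and its bounds did not overlap between genotypes. Nefh had a ratio of 0.26, Nefl of 0.25 and Nefm of -0.02, and among these the bounds were apart for Nefh alone. Isl2 had a ratio of -0.12 with overlapping bounds. Pou4f1 had a ratio of 0.44 (counting SE 0.0638) with bounds apart, at values under 1 FPKM (0.168 in WT and 0.581). With a pseudocount of 0.1 its log2 ratio was 1.34, beside -1.45 for Sncg. The 7 Müller glia markers summed to 1001 FPKM in Cd73N WT and 5341 in Cd73N Ezh2-cKO, with all 7 higher by at least 1.5-fold, and 3 of 4 astrocyte markers were higher as well. Also higher were 3 of 5 microglia, 2 of 6 cone, 1 of 5 amacrine and 1 of 4 endothelial markers. Lower were 6 of 8 rod and 4 of 7 bipolar markers. The part of these cell types in the Thy1, Rbpms and Sncg values was not tested.

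Within Cd73P, Nefh was the only member called higher in the library labelled Ezh2-cKO and Isl2 the only one called lower. Calls were made at 1.5-fold on the log2(FPKM + 1) scale. Over all 21710 genes, 2.27% were higher and 2.39% lower (4.33% and 4.54% of the 10684 genes with at least 1 FPKM in 1 of the 2 libraries), and the median log2 ratio was -0.20 over the members and 0.00 over all genes. Nefh was at 7.2 FPKM in WT and 11.4 in its Ezh2-cKO counterpart, for a log2 ratio of 0.59 (counting SE 0.0583) that lay barely past the threshold, with bounds apart. Isl2 was at 1.15 and 0.383 FPKM in the same order, a log2 ratio of -0.64 (counting SE 0.125). The other 8 had ratios between -0.30 and 0.15, with Pou4f1 at the low end and Rbpms at the high end. Among them the bounds were apart for Pou4f1 (0.255 and 0.0211 FPKM) and Nefm (0.338 and 0.167 FPKM). Both lay under 1 FPKM, where this scale understates ratios. Here 5 of the 7 bipolar markers and all 6 cone markers were called lower, and 6 of the 7 Müller glia markers higher. Not called were the bipolar markers Vsx1 (log2 ratio -0.58) and Prkca (0.14), and the Müller glia marker Clu (0.35). Within the bipolar sum given next, Pcp2 had 82.9 FPKM in WT and 14.1 in its Ezh2-cKO counterpart. The bipolar markers summed to 168 FPKM in WT and 59.4 in the library labelled Ezh2-cKO, and the cone markers to 322 and 166 FPKM, while the Müller glia markers summed to 107 and 226 FPKM, and their part in the Isl2 value was not tested.

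**Figure D4:**
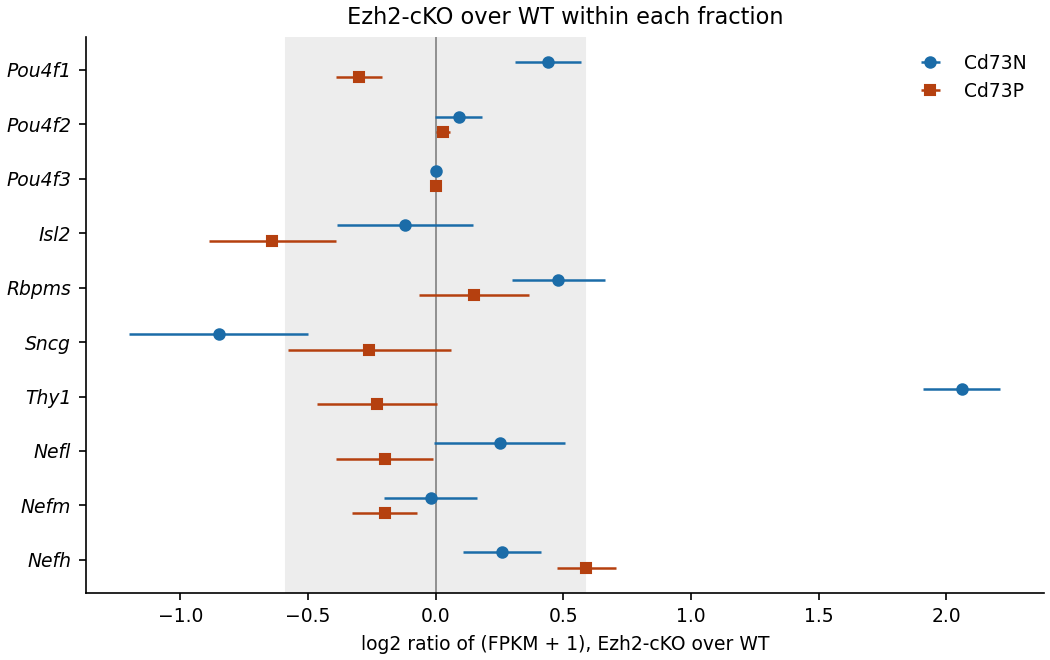
Log2 ratio of (FPKM + 1), library labelled Ezh2-cKO over WT, for each of the 10 genes in Cd73N and in Cd73P; bars are 2 counting standard errors on either side, and the grey band marks ratios within 1.5-fold. Thy1 in Cd73N (2.06) lies far to the right, Sncg in Cd73N (-0.85) and Isl2 in Cd73P (-0.64) lie left of the band, and Nefh in Cd73P (0.59) lies at its edge.

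Other transcription factors of ganglion cells were often low too. Of 28 factors compared, 15 stayed under 1 FPKM in all 4 libraries, among them Eomes, Tbr1 and Dlx2, and Gfi1 was listed at 0 throughout. Isl1, the partner of Pou4f2 that is also expressed in bipolar and amacrine cells, was at 217 FPKM in Cd73N WT, 109 in Cd73N Ezh2-cKO, 12.3 in Cd73P WT and 2.52 in Cd73P Ezh2-cKO. Its log2 ratio of Ezh2-cKO over WT was -0.98 in Cd73N and -1.92 in Cd73P. The Iroquois factors Irx6, at 34.7 and 4.61 FPKM, and Irx5, at 11.2 and 6.27 FPKM in Cd73N WT and Ezh2-cKO, are also used by bipolar cells, while the SoxC factor Sox4 was at 61.6 and 54 FPKM there and at 5.11 and 1.75 FPKM in Cd73P. In Cd73N, 2 of the 28 factors were higher in the library labelled Ezh2-cKO (Sox11 and Dlx1) and 4 lower (Isl1, Irx3, Irx5 and Irx6), and in Cd73P none was higher and 2 were lower (Isl1 and Sox4), beside 7.19% higher and 1.71% lower over all genes in Cd73N and 2.27% and 2.39% in Cd73P. Their median ratio was -0.02 in Cd73N, a sign that turned to 0.01 with scaling by the FPKM sum, and -0.01 in Cd73P. In WT, 9 of the 28 were lower in Cd73P and 1 higher, and in the libraries labelled Ezh2-cKO 12 were lower and 1 higher. Over all genes, 27.9% and 29.1% were lower and 9.07% and 8.41% higher. Among genes with at least 1 FPKM in 1 of the 2 libraries, 45.9% and 45.6% were lower and 15.4% and 13.8% higher. That level was reached by 12 of the 28 factors in WT and 13 in the libraries labelled Ezh2-cKO.

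A further 20 genes used for ganglion cells were compared next, among them receptors, a glutamate transporter, neuropeptides and adhesion molecules. In Cd73N, 7 were higher in the library labelled Ezh2-cKO and 2 lower, with a median log2 ratio of 0.40, beside 7.19% higher and 1.71% lower over all genes and 11.6% and 2.86% of those with at least 1 FPKM. Chrna6, a nicotinic receptor subunit, was among the lower ones, at 36.6 FPKM in WT and 17.8 in the library labelled Ezh2-cKO. Slc17a6, the vesicular glutamate transporter of ganglion cells, was at 0.771 FPKM in Cd73N WT and 2.01 in Cd73N Ezh2-cKO. In Cd73P, 4 were higher and none lower, beside 2.27% and 2.39% over all genes and 4.33% and 4.54% of those with at least 1 FPKM. Rbpms2, the paralog of Rbpms, had 2.29 FPKM in Cd73N WT, 4.56 in Cd73N Ezh2-cKO, 6.58 in Cd73P WT and 12.4 in Cd73P Ezh2-cKO, so that like Nefh and unlike Rbpms it was higher in Cd73P. Jam2, a junctional adhesion molecule used to mark a ganglion cell subset, was also higher in Cd73P, at 104 and 84.5 FPKM against 25.7 and 33.7 FPKM. Nrn1, an axonal growth protein picked out after its values were seen, was at 0.884 FPKM in Cd73N WT and 9.1 in Cd73N Ezh2-cKO, and at 0.0469 and 7.75 FPKM in Cd73P. In WT, 12 of the 20 genes were lower in Cd73P and 3 higher (Rbpms2, Jam2 and Mmp17), and the same numbers held in the libraries labelled Ezh2-cKO, beside 27.9% and 29.1% lower and 9.07% and 8.41% higher over all genes.

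The axonal cytoskeleton was compared with the neurofilaments through 17 genes. Between fractions, 13 were lower in Cd73P and 2 higher in each genotype, with a median log2 ratio of -1.90 in WT and -2.39 in the libraries labelled Ezh2-cKO. All but 1 of the 17 reached 1 FPKM in some library, and of all genes with at least 1 FPKM in 1 of the 2 libraries 45.9% in WT and 45.6% in those labelled Ezh2-cKO were lower, and 15.4% and 13.8% higher. Alpha-internexin (Ina), which assembles with the neurofilament chains, had 34.2 FPKM in Cd73N WT, 30 in Cd73N Ezh2-cKO, 3 in Cd73P WT and 2.09 in Cd73P Ezh2-cKO, above Nefl in each. Peripherin (Prph), another filament protein of ganglion cells, stayed under 0.1 FPKM in every library, the highest value being 0.0922 FPKM. Tau (Mapt) was at 54.2 FPKM in Cd73N WT and 1.99 in Cd73P WT, and the ubiquitin hydrolase gene Uchl1 at 164 and 8.69 FPKM. Nfasc, an adhesion molecule of the axon initial segment, was higher in Cd73P, at 34.9 FPKM against 12.9 FPKM in WT, and the other gene higher there was the filament gene Synm. Between genotypes in Cd73N, Vim and Gfap, filaments of Müller glia and astrocytes, were at 71.1 and 2.86 FPKM in WT and at 197 and 11.4 FPKM in the library labelled Ezh2-cKO, and Uchl1 was at 164 and 95.4 FPKM. In that comparison 3 of the 17 were higher and 1 lower, with a median of -0.03 that turned to 0.04 with scaling by the median ratio, and in Cd73P 1 was higher and 4 were lower, beside 11.6% higher and 2.86% lower in Cd73N and 4.33% and 4.54% in Cd73P over genes with at least 1 FPKM.

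Mean profiles over the 4 libraries were compared with those of all expressed genes. The mean profile of Nefl, Nefm and Nefh, centred on its own mean, combined chains with opposite ratios between fractions, and the nearest of 13108 expressed genes were Kif16b, Fam194a, Carm1, Uggt2 and Cdc45 at Euclidean distances of 0.0341 to 0.0526 log2 units. Within 0.5 log2 units lay 3560 genes. For the Pou4f genes the nearest were Star, Mtf2, Cul2, Srpr and Usp28, at 0.0327 to 0.0474, with 3684 genes within 0.5. Pou4f3 was at 0 throughout and no Pou4f value exceeded 0.581 FPKM, so their mean profile was nearly flat. A gene that varied little between libraries therefore lay near it.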

How the data were processed

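Poly(A) RNA of 4 libraries was analysed, 1 each for the Cd73N and Cd73P fractions of WT and Ezh2-cKO retina. The number of animals pooled per library is not given in the sources used here. Single-end reads of 36 bases were mapped to mm9 with TopHat 2.0.8b by the authors, who deposited FPKM values (read density scaled by exon length and library size, made with Cufflinks 2.1.1 on RefSeq genes) with lower and upper bounds and a status. Read totals are absent here, leaving depth unknown in absolute terms.

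Rows sharing a symbol were summed, 723 small RNA symbols were left out, and genes with OK status in both libraries of a pair were compared as log2(FPKM + 1) with Python 3.11.15 and pandas 2.3.3. A gene was called at 1.5-fold of FPKM + 1. The fold is that of the study, whose text mentions no added 1, so calls at low levels can differ from those of the study. Counting standard errors took the width of the bounds as 4 standard errors. Listed starts had 1 added, and 10206 of 21166 starts then equalled those of GENCODE on the same build. The calling script was tested on simulated data, with 2-fold changes placed only in genes of at least 10 FPKM. Most values of the members lay under that level, so the test does not cover calls there. The genes and the companion lists were chosen with earlier results of these data known. Besides the 10 members and label checks, each list contributed up to 4 genes with the largest ratios among those of at least 10 FPKM, and the profiles most like the mean of the neurofilament or the Pou4f genes were ranked. Slc17a6, Nrn1, Ina, Prph, Eomes, Tbr1, Dlx2 and Gfi1 fall outside that rule and were named after their values were seen. Map1a, Map1b, Map2, Sptbn4, Tfap2a and Tfap2b were not analysed here. Alternatives were other pseudocounts, scalings, thresholds and filters.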

Additional observations from a re-analysis of the deposited data

Results flagged for a closer look

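Some members had ratios of opposite sign in the groups compared, most of them under the 1.5-fold threshold, and with 1 library per group none of these differences was tested. Thy1 had Ezh2-cKO over WT log2 ratios of 2.06 (Cd73N) and -0.23 (Cd73P), which differ by -2.29, and the Cd73P ratio was not called, with overlapping bounds and both values under 1 FPKM. Pou4f1 had ratios of 0.44 and -0.30, neither of them called, a difference of -0.73. Its ratio of Cd73P over Cd73N was 0.10 in WT and -0.63 in the libraries labelled Ezh2-cKO, again a difference of -0.73, at levels of 0.581 FPKM or less. For Nefl these ratios were 0.25 (Cd73N) and -0.20 (Cd73P), differing by -0.45, neither of them called, with overlapping bounds between genotypes in each fraction.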

How the results depend on the processing

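Nefh was the only member higher in Cd73P, in both genotypes, under each of the 8 alternatives, and Thy1 was higher in Cd73N Ezh2-cKO under each. No cause of a change was tested. With a pseudocount of 5, members lower in Cd73P were 2 in WT and 2 in the libraries labelled Ezh2-cKO (Rbpms and Thy1), 0 were lower in Cd73N Ezh2-cKO, and 0 were higher and 0 lower in Cd73P Ezh2-cKO. With a 2-fold threshold the numbers were 2, 3, 0, 0 and 0 in that order. With a pseudocount of 0.1, 2 members were higher in Cd73N Ezh2-cKO (Pou4f1 and Thy1). At that setting 6 were lower in Cd73P Ezh2-cKO (Pou4f1, Isl2, Sncg, Thy1, Nefl and Nefm). After scaling to equal FPKM sums, 2 were higher in Cd73N Ezh2-cKO (Rbpms and Thy1) and 0 in Cd73P Ezh2-cKO, where Nefh had a log2 ratio of 0.56. The ratio without pseudocount, which needs at least 1 FPKM in both libraries and so drops most members, gave 2 higher in Cd73N Ezh2-cKO and 0 lower in each of the 4 comparisons. Scaling by the median ratio shifted log2 ratios of Cd73P over Cd73N by 0.31 in WT and 0.27 in the libraries labelled Ezh2-cKO, and changed no member's call. Of 244 single log2 ratios under alternatives, 58 moved by more than about 2 counting standard errors and no called value changed sign. Only the scalings could have changed a sign, since a pseudocount, threshold or filter leaves it as it is. No paired analysis was possible because the groups compared share fewer than 2 replicate numbers in the labels. An additive fit of fraction and genotype over the 4 libraries was not run. With 1 library a group, none could be left out.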
